A study of Lens culinaris with 18 samples.

Results

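Root and leaf of lentil seedlings were compared directly after 96 h of water deficit, in 25656 of the 124151 assembled transcripts. These transcripts had a deposited value of at least 1 in at least 2 of the 4 libraries compared, which were 2 of root and 2 of leaf. The pair TRINITY_DN47470_c0_g1 and TRINITY_DN47470_c0_g2, which takes most of the leaf libraries, was left out. All seedlings were Lens culinaris of cultivar Sultan, labelled wild type, and were moved at 7 days of age from perlite to aerated Hoagland's nutrient solution. The compared groups had 15% polyethylene glycol (PEG 6000) in that solution. The 96 h controls of root and leaf, 2 libraries each, had the solution alone. The 24 h groups, with and without PEG, serve below only to follow transcripts found at 96 h. The number of seedlings behind a library is not given in the sources used here.

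PEG of this size does not enter plant cells, so it holds water back from the root much as drying soil does. The root meets the low water potential first, and roots commonly go on growing at water potentials that stop leaf growth. The leaf closes its stomata and, under a lasting deficit, takes down photosynthesis and builds up protective proteins and solutes. The transcripts here carry identifiers of an assembly built from reads alone, written as the Trinity program writes genes, and the file pairs none of them with a gene name. The tissues could therefore not be checked against marker genes, and pathways could not be followed. What can be read is how many transcripts separate the tissues, by how much, how each tissue spreads its output over transcripts, and which differences are also seen without PEG.

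Values are TPM, that is reads per transcript length scaled to a fixed total, multiplied by 1 factor per library that the authors' TMM scaling gave. One TPM corresponded to 0.515 and 0.551 deposited units in the root libraries and to 6.998 and 6.70 in the leaf libraries, where the pair held 81.1% and 76.3% of the total. A given value therefore stands for a much lower TPM in leaf. Read depth is unknown. Fewer transcripts were above 0 in leaf, 23194 and 23760, than in root, 64976 and 62230, so a transcript listed at 0 in leaf may lie under what those libraries could show. Because the leaf scale is in doubt, the main counts are given at the deposited values and again at median-ratio scaling, which sets the typical transcript seen in every 96 h library to the same level.

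After 96 h of PEG, root and leaf stood apart in most transcripts. Root had the higher level of 13343 of the 25656 transcripts tested and leaf that of 5795 (limma on log2(value + 1), Benjamini-Hochberg adjusted p under 0.05). These are 52% and 22.6% of the transcripts tested, 74.6% together. The fit takes its spread from all 8 libraries of 96 h, among which the leaf PEG replicates were farthest apart. From the 4 compared libraries alone, 10936 were called higher in root and 4745 in leaf. At median-ratio scaling root was higher for 11496 (44.8%) and leaf for 6798 (26.5%), 71.3% together. All of the 11496 root calls were also made at the deposited values, and all 5795 leaf calls made there were kept. Root held 69.7% of the calls as deposited and 62.8% at median-ratio scaling. Its share was 85.5% when libraries were brought to 1 total with the pair taken out, and 94.1% when the pair stayed in that total. Calls of the same direction under all 4 scalings numbered 11496 for root and 1414 for leaf. In bulk tissue, fewer cells of a type and less RNA per cell cannot be told apart.

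**Figure D1:**
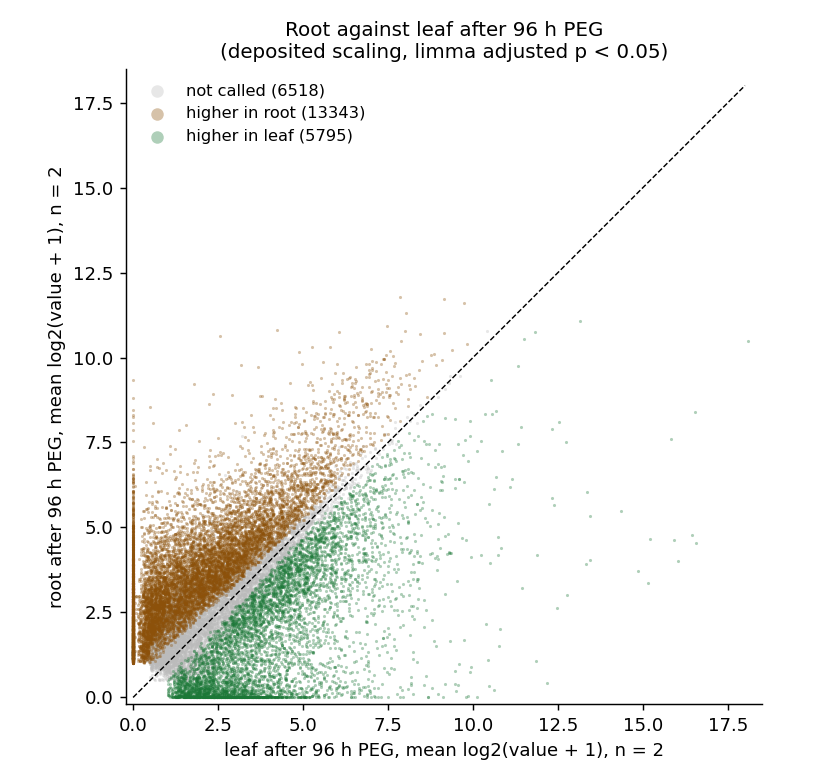
Mean log2(value + 1) of the 2 leaf libraries (x axis) and the 2 root libraries (y axis) after 96 h of PEG, one point per transcript, at the deposited scaling. The 13343 transcripts higher in root include a column at 0 in leaf, and the highest values of all lie far to the right, in leaf.

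As deposited and at median-ratio scaling, most of the surplus of root calls lay in transcripts that leaf hardly showed. In 13001 transcripts, all 4 libraries were at 1 or more, and here 5834 were higher in root and 3321 in leaf. The same 13001 split into 4435 and 4256 at median-ratio scaling, but into 9981 and 1121 at 1 total without the pair. Their median log2 difference, root minus leaf, was 0.40 as deposited and 0.06 after that scaling, against 0.86 and 0.57 over all transcripts tested. A further 5721 transcripts were at 1 or more in both root libraries and in neither leaf library, and 5668 of these were called. The reverse held for 2240, of which 2190 were called. Transcripts of these last groups entered the test through the tissue in which they are high, so their calls follow from how they were selected. Another 3608 were at 1 or more in both root libraries and 1 leaf library, and 1841 of them were called, all higher in root. The reverse held for 407, of which 284 were called, all higher in leaf. These too would have passed the filter through 1 tissue alone, so the direction of their calls largely follows from the selection.

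Differences were large in both directions. At least 4-fold on the log2(value + 1) scale were 4988 of the root calls and 2530 of the leaf calls, and at least 16-fold were 491 and 555. At median-ratio scaling these became 4063 and 3133, and 398 and 748. The 4-fold calls were 10793 in root and 1269 in leaf at 1 total without the pair, and 18708 and 317 with it. At least 64-fold were 56 in root and 126 in leaf, so leaf had fewer calls but more of the steepest ones. The steepest numbered 44 and 168 at median-ratio scaling. Bringing libraries to 1 total turned the order, to 112 in root and 64 in leaf with the pair taken out and to 551 and 25 with it kept. The scale understates the differences of low transcripts.

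The lean towards root also changed with abundance, taken as the mean of both tissues. Below 10, root was higher in 9265 transcripts and leaf in 3089, or 8185 and 3563 at median-ratio scaling. From 10 to 100 the counts were 3687 and 2367, and from 100 to 1000 they were 383 and 303. These bins became 2955 and 2866, and 349 and 333, after the same change of scaling. Of the 45 transcripts at 1000 or more, 8 were higher in root and 36 in leaf. At this top level leaf kept the majority at median-ratio scaling, 36 against 7, and at 1 total without the pair, 32 against 12. In the lower bins the latter scaling gave root 12572, 5728 and 488 and leaf 1857, 1091 and 212, from the lowest bin up. All bins were cut on deposited means, in which 1 TPM counts for more units in leaf. High leaf values alone can therefore place a transcript in the top bin.

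Leaf output was concentrated in a handful of transcripts even without the pair. It took 7 transcripts to reach 50% of the remaining total in each leaf library after PEG, but 1190 and 991 in the root libraries. The 10 most abundant transcripts held 56.6% and 61.1% of the leaf libraries and 4.29% and 4.65% of the root libraries. The 100 most abundant held 71.7% and 75.7% in leaf against 18.1% and 19.6% in root. An exact permutation test of 2 libraries against 2 cannot go below a 2-sided p of 0.333, which each of these measures reached. In the 96 h controls, 306 transcripts made up 50% in both leaf libraries, and 1099 and 1095 did in root. Without the pair and each library's own top 10, the summed deposited values were 573856 and 618394 in leaf and 492131 and 524479 in root.

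**Figure D2:**
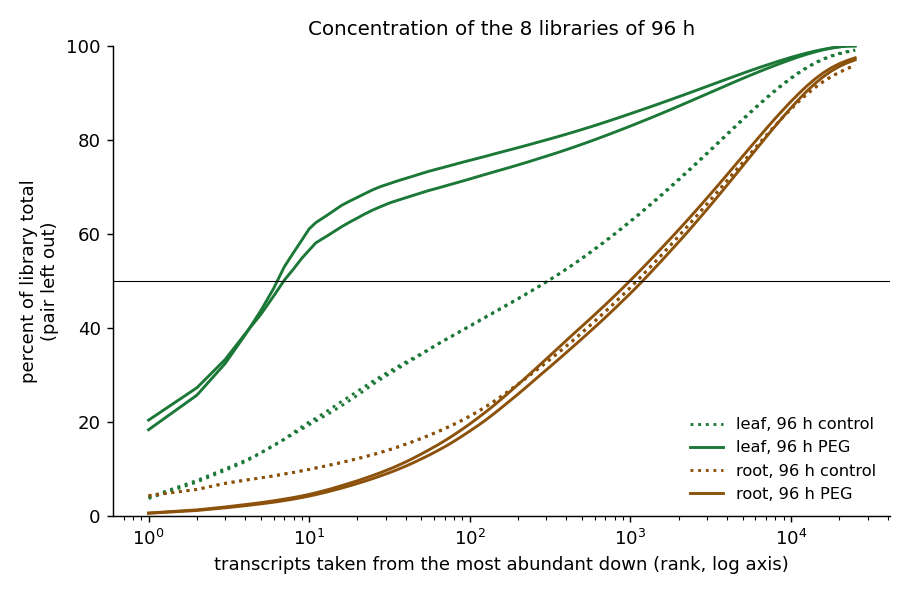
Cumulative percent of each library's total, pair left out, as transcripts are added from the most abundant down (rank on a log axis), for the 8 libraries of 96 h. Both leaf PEG lines cross 50% at 7 transcripts, the leaf controls at 306 and the root libraries near 1000.

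The tissues had none of their 10 most abundant transcripts in common and shared 13 of their first 100 and 357 of their first 1000. The 10 of leaf had means of 30294 to 281243 in leaf and 9.43 to 1435 in root. All 10 were called higher in leaf under each of the 4 scalings, with log2 differences of 7.62 to 12.02 in size at the deposited one. They came from 10 separate assembly components. Together they held 0.338% and 0.470% of the root libraries after PEG. In the leaf 96 h controls the same 10 already held 9.47% and 11%, and their means there ran from 12.9 to 13778. With the pair kept in the total, their summed share of the leaf PEG libraries was 10.7% and 14.5%. The large rise of this sum over the leaf controls therefore depends on leaving the pair out. Single members differed: the lowest in these controls had a mean of 12.9 there, and all 10 had means of at least 30294 after PEG. One TPM was 0.795 and 0.792 units in these controls and 6.998 and 6.70 after PEG, a far smaller change than that member's rise. With the pair kept, TRINITY_DN49956_c5_g4, at a mean of 13719 in these controls, held 3.86% and 4.365% after PEG, against 1.63% and 1.83% there. TRINITY_DN47043_c2_g4 held 1.14% and 1.745%, against 1.62% and 1.85%. Root had a flatter top, with means of 1730 to 3524. Of its 10, 8 were higher in root under all 4 scalings.

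Because no gene names are at hand, 4 transcripts stand for these patterns, 2 in each direction. They are the one with the highest mean in the higher tissue and the one with the largest difference among those with a mean of at least 10. They had to be called in the same direction at both scalings, at least 4-fold apart and without overlap of the libraries. The values after 96 h of PEG chose them, so their differences and p-values there describe these 4 and support nothing further.

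TRINITY_DN49956_c5_g4 was the most abundant leaf transcript after the pair. It stood at 270081 and 292405 in the leaf libraries after 96 h of PEG and at 1273 and 1596 in root. Both leaf libraries lay far above both root libraries, and this single transcript made up 20.4% and 18.4% of the leaf total without the pair. The log2 difference, root minus leaf, was −7.62 (SE 0.12, limma adjusted p = 2.4e-06), and −8.02 at median-ratio scaling. Without PEG at 96 h the leaf values were 12983 and 14456 and the root values 2497 and 2552, again with leaf above root. At 24 h the tissues overlapped: leaf had 10756 and 2917 in control and 8106 and 13704 with PEG, and root had 6981 and 10996, and 8860 and 10640. One other transcript of its assembly component was tested and was not called.

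TRINITY_DN47043_c2_g4 had the largest difference towards leaf. It was at 79561 and 116867 in leaf after 96 h of PEG and at 18.2 and 27.0 in root. The log2 difference was −12.02 (SE 0.24, limma adjusted p = 2.81e-06). Leaf lay above root in every condition. In the 96 h controls leaf had 12911 and 14644 and root 139 and 128. As a share of the whole library with the pair in it, leaf was at 1.14% and 1.745% after PEG and at 1.62% and 1.85% in these controls, so its higher deposited value under PEG rests on the scaling. At 24 h leaf was at 3575 to 11812 over its control and PEG libraries, and root at 47.7 to 120.7. The other tested transcript of its component was also higher in leaf.

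TRINITY_DN47758_c1_g1 was the most abundant root transcript among those at least 4-fold above leaf. Its values were 3242 and 3806 in root and 277 and 190 in leaf after 96 h of PEG, with no overlap. The log2 difference was 3.93 (SE 0.18, limma adjusted p = 1.6e-05), and 3.53 at median-ratio scaling. In the root 96 h controls it was the top transcript of the library, at 25767 and 26045, while leaf had 314 and 321. Root exceeded leaf at 24 h as well, with 6566 and 3566 against 99.0 and 84.3 in control and 3312 and 1662 against 54.8 and 41.6 with PEG.

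TRINITY_DN38181_c0_g3 was higher in root in every condition. It stood at 586 and 717 in root after 96 h of PEG and was listed at 0 in both leaf libraries, so no fold is given. Leaf was also listed at 0 in both 96 h controls, in both 24 h PEG libraries and in 1 of the 24 h controls, the other being at 1.23. Root had 392 and 402 in the 96 h controls, 386 and 490 at 24 h with PEG and 318 and 219 in the 24 h controls. The other tested transcript of its component was also higher in root.

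**Figure D3:**
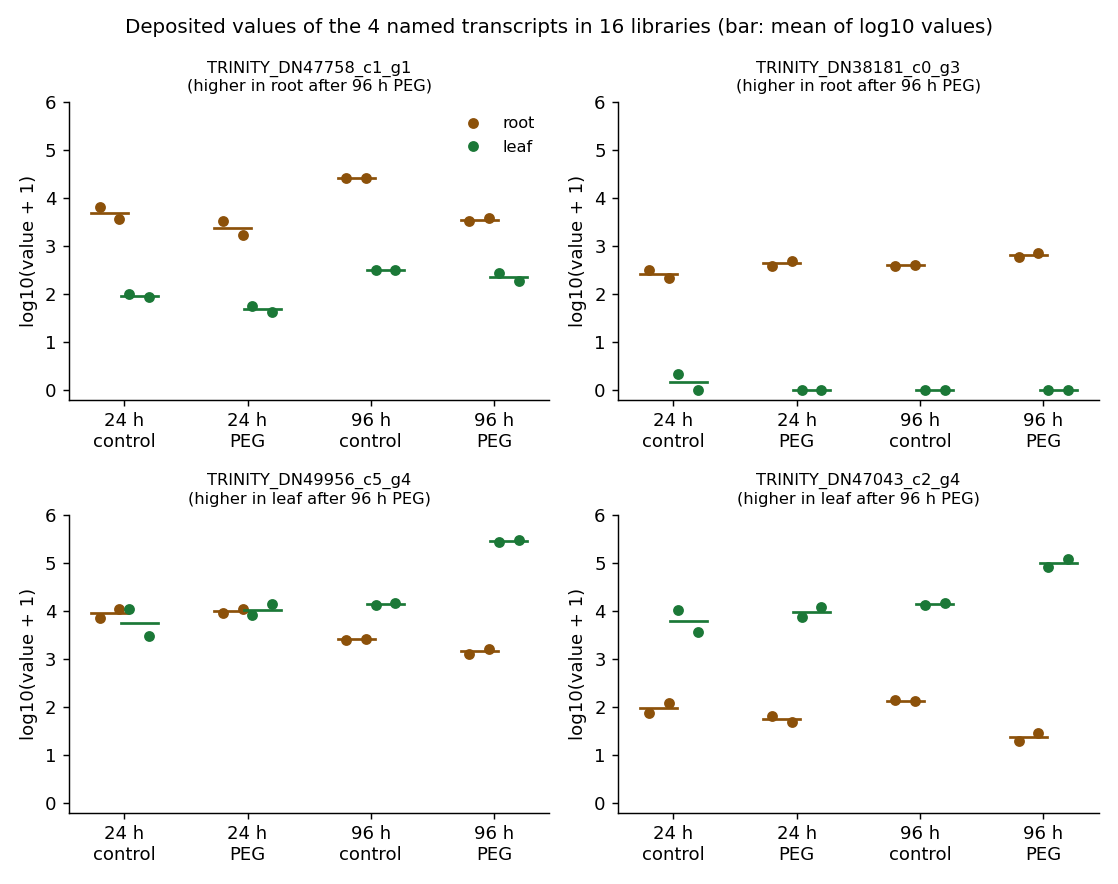
Deposited values of the 4 named transcripts on a log10(value + 1) scale in root (brown) and leaf (green) in 4 conditions. Each point is a library, and bars are means of the log10 values. Only TRINITY_DN49956_c5_g4 has overlapping tissues, at 24 h, and both leaf transcripts reach their highest values after 96 h of PEG.

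Transcripts nearly restricted to a tissue were counted at 10 or more in both libraries of that tissue and under 0.5 in both of the other. After 96 h of PEG, 452 were root-restricted and 362 leaf-restricted, 1.76% and 1.41% of those tested. Root-restricted transcripts had a median of 17.4 in root, with 14 at 100 or more, and 420 were listed at 0 in both leaf libraries. Leaf-restricted ones had a median of 24.4 in leaf, with 44 at 100 or more, a highest mean of 4705, and 134 listed at 0 in both root libraries. The counts were 398 and 465 at median-ratio scaling, but 952 and 147 at 1 total without the pair and 3173 and 37 at 1 total with it. The root-restricted count was 713 without leaf 96 h drought replicate 1 and 748 without replicate 2. It was 517 and 542 without root 96 h drought replicate 1 and 2, and the leaf-restricted count was 414 to 508 over these settings. Leaving out a library drops a condition from the rule, so these counts could not fall.

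The other 12 libraries, which had no part in choosing these transcripts, showed where these transcripts stood otherwise, at the deposited values alone. In the leaf 96 h controls, 204 of the 452 root-restricted transcripts were under 0.5 in both libraries (45.1%, against 18% of all tested) and 43 were at 10 or more in both (9.51%, against 33.4%). In the root 96 h controls, 147 of them reached 10 in both libraries (32.5%, close to the 33.9% of all tested). The median of their means was 6.43 in the root and 0.621 in the leaf 96 h controls.

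Leaf-restricted transcripts were low in root elsewhere too, with 238 of 362 under 0.5 in both root 96 h controls (65.7%, against 12% of all tested). Leaf itself was low in them without PEG, at the deposited values. The median of their means was 0.656 in the 96 h controls and 0.501 in the 24 h controls, but 4.19 after 24 h of PEG. At 10 or more in both libraries were 71 in the leaf 96 h controls (19.6%, against 33.4% of all tested) and 77 in the leaf 24 h controls (21.3%, against 33.1%). After 24 h of PEG 123 were (34%), near the 31.5% of all tested. One TPM was 0.795 and 0.792 units in the leaf 96 h controls, against 6.998 and 6.70 in leaf after 96 h of PEG. A limit of 10 thus stands for a higher TPM in these controls, and the transcripts were not followed at other scalings. Of 223 tested transcripts restricted to root by the same limits in the 96 h controls, 43 were so after PEG as well. Of 127 restricted to leaf, 30 were. Transcripts too low after PEG to be tested are missing from the 223 and 127, which can raise the share kept.

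**Figure D4:**
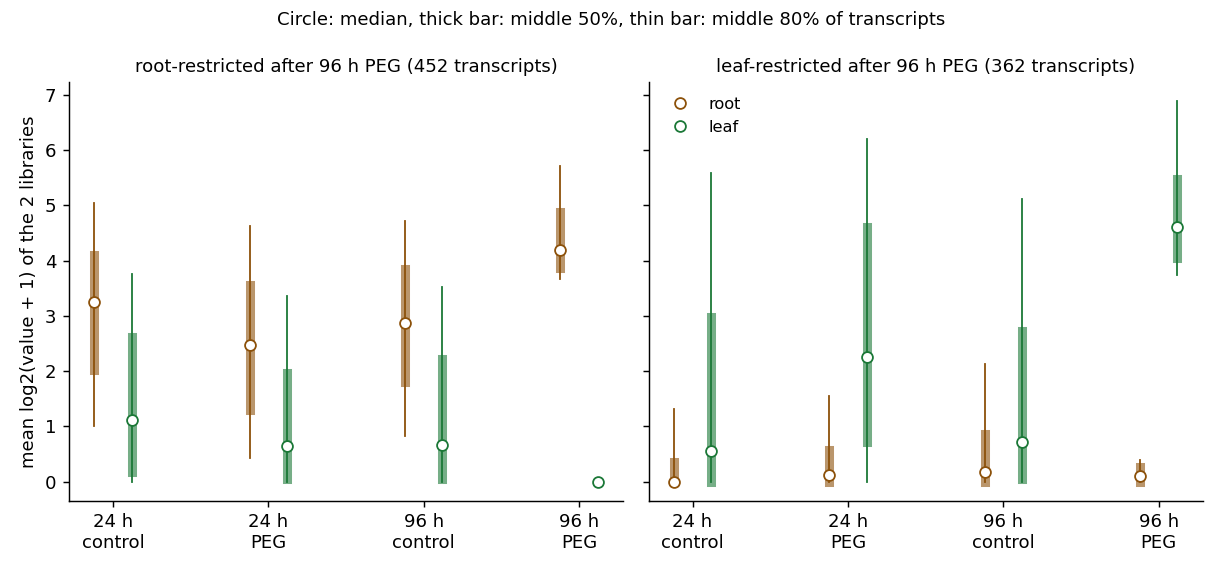
Levels of the 452 root-restricted and 362 leaf-restricted transcripts in root (brown) and leaf (green) by condition, as mean log2(value + 1) of the 2 libraries. The 96 h PEG values chose the transcripts; in the other conditions leaf-restricted transcripts stand highest in leaf after 24 h of PEG.

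The tissue differences after 96 h of PEG were next set beside those of the other 3 conditions, which share no library with it. For this, 16 libraries were fitted together, giving 13070 root calls and 5491 leaf calls after 96 h of PEG. One of the 24 h root controls is itself taken up by the pair, which held 92.4% of it. Contrasts of 1 fit share their estimate of spread, which can raise overlaps. Of the 5491 leaf calls, 2731 were also higher in leaf after 24 h of PEG (49.7%, against 20% of all tested), 2586 in the 24 h controls (47.1%, against 23%) and 1941 in the 96 h controls (35.3%, against 15.6%). Of the 13070 root calls, 4006 were higher in root after 24 h of PEG (30.7%, against 20.1%), 3658 in the 24 h controls (28%, against 17.6%) and 3898 in the 96 h controls (29.8%, against 20.6%). Calls for the opposite tissue were fewer than in all tested in each of the 6 cases, from 5.04% against 17.6% to 12.8% against 23%. At median-ratio scaling the share called for the same tissue was 32.2% to 43.6% of leaf calls, against 15.6% to 20.4% of all tested, and 32.8% to 36.2% of root calls, against 20.9% to 22.3%. At 1 total without the pair there were 2954 leaf calls, of which 33.3% to 49.7% were called for leaf in another condition, against 11.6% to 16% of all tested. Of the 18314 root calls at that scaling 37.5% to 48.1% were called for root, against 29.2% to 37.8%.

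In the same fit of 16 libraries, 1746 of the 25656 transcripts tested were higher in root in all 4 conditions, and 1531 in leaf. These were 1814 and 1721 at median-ratio scaling. Such classes over all 4 conditions were not counted at 1 total. Root was higher after 96 h of PEG while leaf was higher in all 3 other conditions for 361 transcripts, and the reverse held for 59. The counts were 203 and 148 at median-ratio scaling. Across 10642 transcripts at 1 or more in all 16 libraries, the Spearman correlation between a root and a leaf library was 0.497 to 0.513 after 96 h of PEG. It was 0.711 to 0.725 in the 96 h controls, 0.621 to 0.696 after 24 h of PEG and 0.601 to 0.650 in the 24 h controls. Replicates of the compared groups correlated at 0.984 in root and 0.888 in leaf, where 22.6% of the transcripts tested were 2-fold or more apart between libraries, against 2.39% in root.

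Whether the root-leaf difference itself changed with PEG was tested at 96 h as an interaction in the 8 libraries. It differed from that of the controls for 15203 transcripts, 59.3% of those tested (limma, adjusted p under 0.05), or 14326 (55.8%) at median-ratio scaling. The difference moved towards root for 10452 and towards leaf for 4751. Moves towards root were 68.7% of these as deposited and 60.9% at median-ratio scaling. They were 83.5% at 1 total without the pair and 93.1% at 1 total with it, where 3023 and 1547 moved towards leaf. Moves of the same direction under all 4 scalings numbered 8706 towards root and 1474 towards leaf. The median change over all tested was 0.67 as deposited and 0.43 at median-ratio scaling. Replicates were farther apart in leaf after PEG, with a median absolute log2 difference of 0.39, than in the other 96 h groups, at 0.07 to 0.16.

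Transcripts with a called interaction were put into classes by their calls in each condition. The most numerous class had a tissue difference that was called under PEG and not in the controls. It held 5243 transcripts higher in root and 2264 higher in leaf, or 4388 and 2774 at median-ratio scaling. A difference called in both conditions was wider under PEG for 2182 root transcripts and 668 leaf transcripts, and narrower for 480 and 673. At median-ratio scaling these were 1765 and 817, and 475 and 599. The called tissue was turned round in others: 1546 were higher in leaf in the controls and in root under PEG, and 817 went the other way. These were 1242 and 959 at median-ratio scaling. A difference was called in the controls and not under PEG for 458 root and 674 leaf transcripts of those with a called interaction. Where the interaction was not called, 302 root and 224 leaf transcripts had a difference called in the controls alone. Another 1723 root and 545 leaf transcripts without a called interaction had one called under PEG alone. The transcripts were chosen by their values under PEG, which keeps out those seen only in the controls. With a value of at least 1 in any 2 of the 8 libraries, a filter added after seeing the data, 35392 were tested. The class called under PEG alone then held 5192 and 2187, and the class called in the controls alone 4336 and 1845. The interaction was then called for 21122, of which 57% moved towards root. Both named leaf transcripts, which their PEG values chose, were among those that widened. Their changes were −5.18 log2 units for TRINITY_DN49956_c5_g4 and −5.35 for TRINITY_DN47043_c2_g4.

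**Figure D5:**
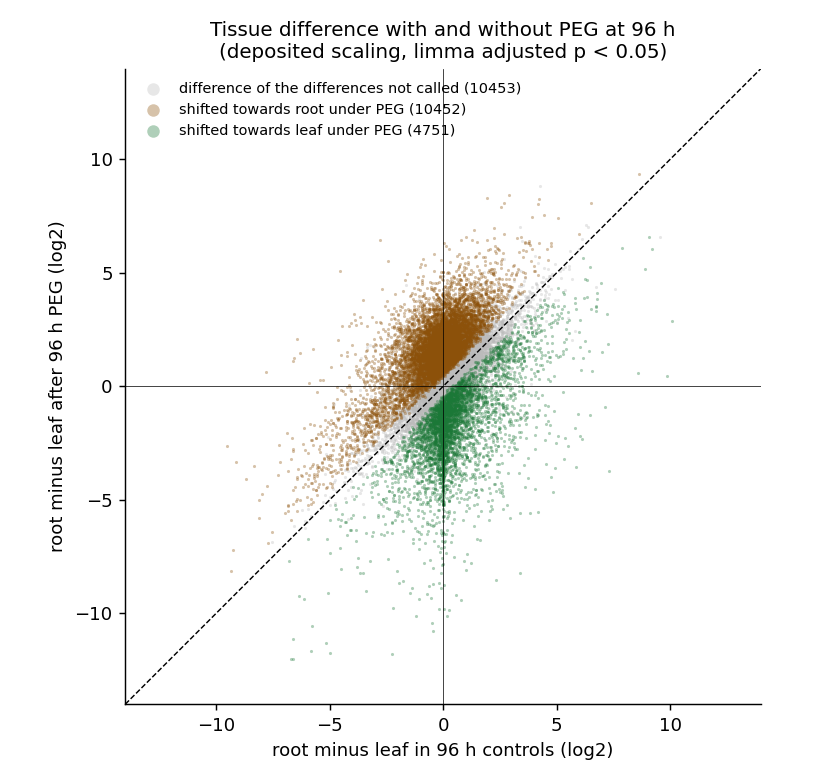
Root minus leaf log2 difference in the 96 h controls (x axis) and after 96 h of PEG (y axis), one point per transcript, deposited scaling. The 10452 transcripts above the dashed line of equality and in brown moved towards root, and the 4751 in green moved towards leaf.

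The assembly also holds groups of related transcripts. A Trinity component is a set of sequences that the assembler joined and then split into genes, so its members may be copies, alleles or pieces of 1 gene, and reads of near-identical members can be divided between them. Among the tested transcripts 8009 lay in 3443 components with at least 2 tested members, which made 6285 pairs. Both members were called in 3433 pairs: both higher in root in 2132, both higher in leaf in 462 and in opposite tissues in 839 (24.4%). Over all calls, taken without regard to component, 42.2% of pairs would be opposite. In 117 of the opposite pairs both members were at least 4-fold apart, and in 238 both had a mean of at least 10 in their higher tissue. Opposite pairs numbered 871 at median-ratio scaling (27.9%, against 46.7% over all calls), of which 117 were at least 4-fold apart on both sides.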

How the data were processed

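RNA of root and leaf was measured by strand-marked, paired RNA-seq of polyadenylated RNA, per the labels' protocols. The deposited signal per transcript is TPM times 1 TMM factor per library, as the file's label and the values show: in the 4 compared libraries 100% of values between 0 and 0.5 lay on multiples of 0.01 TPM after scaling, within 0.0006. Per the submitters' processing notes, the tools were RSEM, edgeR, Trimmomatic 0.35 and FastQC 0.11.5, without their roles. Aligner, assembler version and filters are not given in these sources.

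From these values, the 8 libraries of 96 h were fitted with limma 3.58.1 (R 4.3.3) on log2(value + 1), 1 mean per group. Moderation used the trend and robust options of eBayes, and Benjamini-Hochberg adjustment covered 25656 transcripts at 0.05. The 24 h libraries stayed out of this fit because the root 24 h controls differ between replicates, and a second fit held all 16. Median-ratio size factors used transcripts above 0 in every library of the fit. The filter stayed on the deposited values under every scaling. The labels call the replicates biological; p-values reflect the spread between these libraries alone. The scripts were tested on simulated data. The transcripts, the rule for naming 4 of them and the tests were chosen with earlier results of these data known. No genome or annotation was used, so no marker list could be applied. The 2 stem samples were not analysed here.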

Additional observations from a re-analysis of the deposited data

Results flagged for a closer look

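The root-leaf difference under PEG differed from that of the 96 h controls, by the interaction test, for 15203 transcripts, the 4 named ones included. The 96 h PEG values that chose these 4 also enter the interaction. Their interaction values and p-values therefore describe these 4 and support nothing further. TRINITY_DN38181_c0_g3, listed at 0 in all leaf libraries of 96 h, was called in the fit of 8 libraries (limma adjusted p = 0.0129) and not in that of all 16 (0.202). For TRINITY_DN49956_c5_g4 the difference, PEG minus control, was −5.18 (SE 0.17, limma adjusted p = 3.81e-05). For TRINITY_DN47043_c2_g4 it was −5.35 (SE 0.34, limma adjusted p = 0.00014). Under the other scalings these values ran from −5.56 to −1.92 and from −5.72 to −2.11. Both moved towards leaf, with both leaf PEG libraries above both leaf controls as deposited. Root was also lower after PEG as deposited. Its mean was 1435 against 2524 in the controls for TRINITY_DN49956_c5_g4 and 22.6 against 134 for TRINITY_DN47043_c2_g4. For TRINITY_DN47758_c1_g1 the difference narrowed, with a change of −2.42 (SE 0.25, limma adjusted p = 0.000676), −2.79 at median-ratio scaling and −1.40 at 1 total without the pair, but widened by 0.81 at 1 total with it (limma adjusted p = 0.00901). The part of the pair's dominance in these values was not tested.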

How the results depend on the processing

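The scale of the leaf libraries and the filter on low values both move the counts. With libraries brought to the same total and the pair kept in it, 22464 transcripts were higher in root and 1414 in leaf. With the pair removed, 3192 were higher in leaf, and transcripts shared with another condition became 8813, 6864 and 7352 for root and 1125, 1467 and 984 for leaf in the 24 h controls, 24 h PEG and 96 h controls, an alternative chosen after seeing the data, like the other 2 run on these shared counts. A filter of at least 5 tested 15482 transcripts, with 8247 higher in root and 9936 interactions. With no limit on values 53409 were tested, with 27699 higher in root and 23597 interactions. Under the other settings the numbers higher in root, higher in leaf and of interactions stayed within 1.5 times. Smaller classes moved more: the 361 and 59 transcripts turned round after 96 h of PEG became 203 and 148 at median-ratio scaling. Leaving out single libraries gave 11392 to 15192 higher in root, 5101 to 6909 higher in leaf and 11994 to 19698 interactions. Here a group left with 1 library is assumed to vary like the others. Without root 24 h control replicate 2, the shared counts for root were 5302, 5272 and 5148. The sample titles link same-numbered replicates by a number alone. Their deviations correlated at −0.01 to 0.06, which cannot exclude a shared origin with 2 libraries per group. With a replicate block 13161 were higher in root, 5693 in leaf and 14623 interactions were called.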
